A study of Mus musculus with 12 samples.

Results

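Tfrc, the gene of the receptor that carries transferrin-bound iron into cells, was followed in mouse liver together with 9 other genes of hepatic iron handling. Tfrc was chosen on its own RF.SAAR vs. RF.Ctrl value in these data, so that value is a description, and Tfrc was tested in HF.SAAR vs. HF.Ctrl alone. The other 9 genes, Tfr2, Trf, Hamp, Hamp2, Fth1, Ftl1, Slc40a1, Slc11a2 and Bmp6, were selected for their known places in iron transport, storage and its control, with earlier results of these data known. The 10 members were 10 of the 36047 genes with a listed transcript, and all 10 were among the 14670 genes with enough counts to be tested. The lowest count of a member in a mouse was 46, for Hamp2.

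The data were liver RNA sequencing counts from 12 male C57Bl/6J mice, aged 5 to 6 months and kept in single cages, which ate their diets for 7 days and went without food for 4 h before collection. Each of the 4 groups held 3 mice. Fat gave 18% of energy in the RF diets and 60% in the HF diets. No diet contained cysteine, and the SAAR diets differed from the Ctrl diets of the same fat content by a lower methionine content, balanced by glutamic acid. Total estimated counts, in read pairs, were 18722319, 20162590 and 17207527 in RF.Ctrl mice 1, 2 and 3, and 17061599, 18429983 and 17947785 in RF.SAAR mice 1, 2 and 3. They were 16203094, 21230092 and 16649996 in HF.Ctrl and 17710716, 19933360 and 19895587 in HF.SAAR. Mouse numbers are names and carry no order or pairing. Values compared between mice are CPM, counts scaled to library totals by TMM factors, and levels compared between genes are TPM, which take transcript length into account.

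The livers carried their defining cell type, with Alb at a mean of 32728 TPM and 0 of 10 hepatocyte markers at 0 in any mouse. The hepatocyte sum was 89765 to 102147 CPM among RF.Ctrl mice, 80298 to 86945 among RF.SAAR mice, 85382 to 98729 among HF.Ctrl mice and 81953 to 93831 among HF.SAAR mice. It was thus lower in every RF.SAAR mouse than in every RF.Ctrl mouse, with 9 of 10 markers below 0 and a median log2 fold change of -0.20, and on HF the groups overlapped, with a median of -0.04. With edgeR 0 of these markers were called on RF or on HF, where 1 and 2 had an unadjusted p under 0.05, beside 13.6% and 12.4% of all tested genes. The part of these markers in the member results was not tested. Genes of pancreatic acinar cells set 5 libraries apart. The 16 listed acinar genes summed to 1331 CPM in RF.Ctrl 1, 1628 CPM in HF.Ctrl 1, 5916 CPM in HF.Ctrl 2, 3322 CPM in HF.SAAR 2 and 15959 CPM in HF.SAAR 3. In the other 7 mice the sum was between 39.4 and 81.9 CPM. The most abundant of these genes was Ctrb1, at a mean of 587 TPM, and each of the 16 had counts in every mouse. Calls were therefore also made in the 7 low mice alone (on RF 2 Ctrl and 3 SAAR mice, on HF 1 of each), a choice made after seeing the data, in which the lone HF mice were assumed to vary like the other groups.

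Liver cells take up transferrin-bound iron through the receptors that Tfrc and Tfr2 encode, move it out of endosomes through the transporter of Slc11a2, store it in ferritin and release it through ferroportin. Hepatocytes also make hepcidin, the hormone that closes ferroportin and so lowers iron export to the blood, and they make it under control of BMP signals and of Tfr2. Inside the cell, iron regulatory proteins bind stem-loops called iron-responsive elements. Binding in the 3′ UTR of Tfrc is known to stabilize the mRNA, while binding in the 5′ UTR of ferritin and ferroportin mRNAs is known to hold back their translation.

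Both SAAR diets went with more Tfrc RNA. Its 3 values in each SAAR group lay far above the 3 values of the matching Ctrl group. In CPM, both ferritin chains, Slc11a2 and Slc40a1 were also higher in every SAAR mouse than in every Ctrl mouse of the same fat content. Tfr2 was lower in every such pair, while Trf, Hamp, Hamp2 and Bmp6 had overlapping groups in at least 1 of the 2 comparisons and passed no test. No share over all tested genes stands beside such separations, here or below, so they are descriptions and not tests. Below, a gene is called when its p, adjusted over all tested genes of a comparison by the Benjamini-Hochberg method, is under 0.05 in the edgeR quasi-likelihood F-test. An unadjusted p under 0.05 was reached by 13.6% of all tested genes on RF, 12.4% on HF and 20.3% averaged over fat.

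RF.SAAR vs. RF.Ctrl asks what restriction went with on regular fat, and there 1 of the 9 members other than Tfrc was called, Ftl1, higher, where 1.49% of all tested genes were called. Tfrc was chosen on this value and is left out of the RF count. HF.SAAR vs. HF.Ctrl asks the same on high fat, and there 4 of 10 members were called, all 4 higher (Tfrc, Slc11a2, Fth1 and Ftl1), where 1.97% of all tested genes were called. Averaged over fat, SAAR vs. Ctrl called 5 of the 9 members other than Tfrc, 4 higher (Slc11a2, Fth1, Ftl1 and Slc40a1) and 1 lower (Tfr2), where 6.92% of all tested genes were called. The averaged value of Tfrc holds the mice it was chosen on and is a description, and without Tfrc 3 of 9 members were called on HF. The median log2 fold change of the 9 members other than Tfrc was 0.29 on RF, 0.44 on HF and 0.27 averaged over fat, beside -0.00 for all genes tested in each. With 1 HF mouse of each diet, Tfrc was 1.89 on HF among the 7 mice with low acinar sums. Besides Tfrc, no member passed there in either fat background (Ftl1 was 0.69 on RF and 0.93 on HF, with adjusted p of 0.0923 and 0.266), and Ftl1 passed averaged over fat (0.81, adjusted p = 0.025).

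Fat content itself called no member. With edgeR, 0 of the 9 members other than Tfrc were called in any comparison of fat content or in the interaction. The share of all genes called was 0.0477% between the SAAR groups, HF.SAAR vs. RF.SAAR, and 0% between the Ctrl groups, HF.Ctrl vs. RF.Ctrl. It was 0.00682% in the interaction of diet and fat and 0.0409% in HF vs. RF averaged over diet. Each of these comparisons holds RF mice on which Tfrc was chosen, so the Tfrc values in them are descriptions. At an unadjusted p under 0.05, the members that passed numbered 2, 1, 2 and 1 in these comparisons, and DESeq2 called 0 members in each. Of all tested genes 5.59%, 3.59%, 3.15% and 5.84% had such an edgeR p. Leaving out 1 mouse at a time, all genes called between the SAAR groups went from 7 to as few as 1 (without HF.SAAR 2 or HF.SAAR 3), and in HF vs. RF averaged over diet from 6 to between 0 (without RF.Ctrl 1, RF.Ctrl 3, HF.Ctrl 1 or HF.Ctrl 2) and 11 (without RF.SAAR 2). Between the Ctrl groups there were 0 to 2 such calls, and in the interaction 0 to 2, beside 0 and 1 with all mice. For all genes, HF.Ctrl vs. RF.Ctrl gave 0 calls with edgeR, 527 genes at an unadjusted p under 0.05 and 31 calls with DESeq2.

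**Figure D1:**
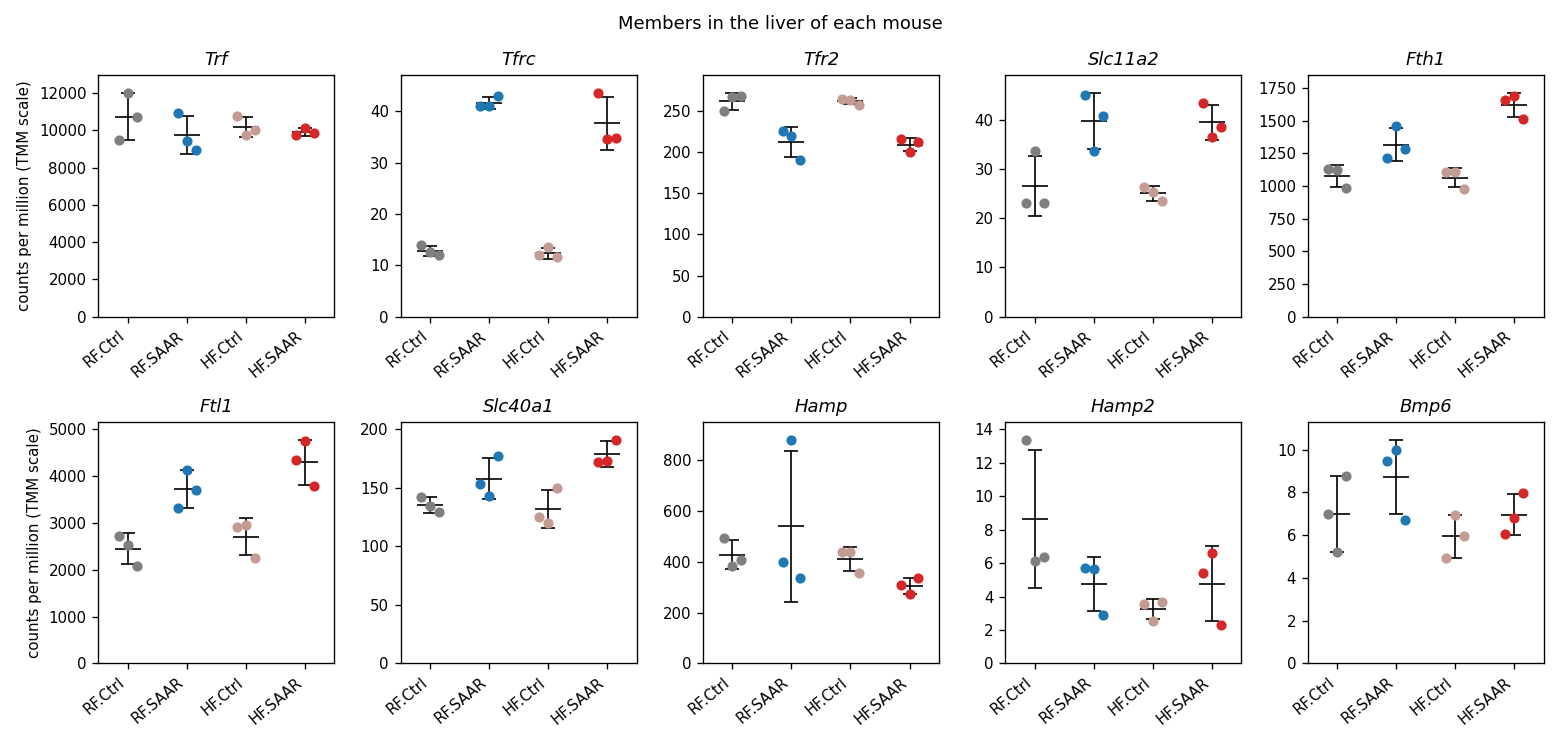
Normalised abundance of the 10 members in each liver, in CPM on the TMM scale, with 1 panel per gene and a vertical axis that starts at 0. Points are single mice, 3 per group, and bars are the mean and SD. Tfrc lies between 11.6 and 13.9 CPM in the 6 Ctrl mice and between 34.6 and 43.6 CPM in the 6 SAAR mice.

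The plot of members by mouse shows how unequal the members are in spread. Between mice, the highest CPM was 1.35 times the lowest for Trf, 1.41 times for Tfr2, 3.21 times for Hamp, 3.76 times for Tfrc and 5.87 times for Hamp2. By level, the plasma iron carrier Trf came out highest among members at a mean of 4596 TPM, followed by Ftl1 at 4424, Hamp at 2370 and Fth1 at 1873 TPM. Tfr2 averaged 92.1 TPM, Slc40a1 56.2, Hamp2 29, Slc11a2 14.2, Tfrc 7.72 and Bmp6 2.49 TPM. So of the 2 receptor RNAs, Tfr2 was the more abundant one in every liver.

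Transferrin itself, the protein that carries iron in plasma, is encoded by Trf. Trf had 9495, 12014 and 10690 CPM in RF.Ctrl mice 1, 2 and 3, and 10911, 9441 and 8931 CPM in RF.SAAR. The HF.Ctrl mice had 10772, 9766 and 10009 CPM, and the HF.SAAR mice 9720, 10138 and 9861 CPM. These groups overlapped in every comparison. The log2 fold change was -0.14 (95% confidence interval -0.35 to 0.07) in RF.SAAR vs. RF.Ctrl and -0.04 (-0.25 to 0.17) in HF.SAAR vs. HF.Ctrl, with adjusted p of 0.624 and 0.928. Its direction turned by library size alone (0.03 on RF and 0.13 on HF) and on HF with the effective-length offset (0.01). Leaving out 1 mouse gave -0.22 (without RF.Ctrl 1 or RF.SAAR 1) to -0.05 (without RF.Ctrl 2) on RF, and -0.07 to 0.00 on HF. Its mean TPM was 4555 in RF.Ctrl, 5041 in RF.SAAR, 3994 in HF.Ctrl and 4796 in HF.SAAR, higher with SAAR on both fat contents. Of the 31-base words of its most abundant transcript, 92% also occur in transcripts of other genes and 87.3% in Gm20425, which had a mean of 5.51 TPM.

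Tfrc (ENSMUSG00000022797) lies on the plus strand of chromosome 16 in GRCm38, at chr16:32608920-32632794, and its transcript ENSMUST00000023486.14 gave 73.6% of its summed TPM. The 3′ UTR of that transcript holds 4 windows of the iron-responsive element form. They are shown because that UTR is where the known control of this mRNA acts. The search took every 27-base window with the letters CNNNNNCAGTGN on the transcript strand in which all 5 bases before the loop could pair with the 5 after it, G with T included, and at least 4 of the 5 lower positions of the stem could pair too. Capitals mark the loop. In GRCm38, plus strand, the windows lie at chr16:32631220-32631246, chr16:32631599-32631625, chr16:32631664-32631690 and chr16:32631711-32631737.
Tfrc window 1: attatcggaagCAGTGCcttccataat
Tfrc window 2: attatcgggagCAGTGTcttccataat
Tfrc window 3: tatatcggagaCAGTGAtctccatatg
Tfrc window 4: attatcgggaaCAGTGTttcccataat
Such a window occurred in 78 of 116728 transcripts searched (0.0668%) and in 43 of 36047 genes (0.119%), and 4 of the 10 members held at least 1. With 4 or 5 of 5 upper pairs and no rule on the lower stem, 5.73% of transcripts and 8.54% of genes had a window, among them 5 members. A match is a description, not a site or a cause.

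Tfrc had 13.9, 12.5 and 11.9 CPM in RF.Ctrl mice 1, 2 and 3, and 41, 41 and 43 CPM in RF.SAAR. It had 11.9, 13.6 and 11.6 CPM in HF.Ctrl, and 43.6, 34.6 and 34.8 CPM in HF.SAAR. The SAAR mice of both fat contents stood well above every Ctrl mouse, with no overlap. Means were 12.8 ± 1.03 CPM in RF.Ctrl, 41.7 ± 1.16 in RF.SAAR, 12.4 ± 1.1 in HF.Ctrl and 37.6 ± 5.15 in HF.SAAR (SD, n = 3 each). The means of HF.Ctrl and RF.Ctrl were closer than the larger SD of the pair, and so were those of HF.SAAR and RF.SAAR. On RF, where Tfrc was chosen, the log2 fold change was 1.71 with SE 0.12.

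On HF, Tfrc rose 3.04-fold, or 1.60 on the log2 scale with SE 0.12 (95% confidence interval 1.35 to 1.86, adjusted p = 1.11e-05). It had the 4th smallest p of the 14670 genes tested there, and 27 called genes, counting Tfrc, had a log2 fold change at least as large. Leaving out each mouse in turn gave HF values between 1.49 and 1.68, with adjusted p between 2.31e-05 and 0.000237. These p values used a spread shared with the RF mice on which Tfrc was chosen. In an edgeR fit of the HF groups alone the value was 1.60 (SE 0.13, adjusted p = 0.000978). In the 7 mice with low acinar sums, with 1 mouse in each HF group, the HF value was 1.89. Between the fat contents, Tfrc differed by -0.15 (SE 0.11) in HF.SAAR vs. RF.SAAR and by -0.05 (SE 0.12) in HF.Ctrl vs. RF.Ctrl, as log2 values. The SAAR value was between -0.28 and 0.05 over settings, and between -0.27 and -0.09 with 1 mouse left out. For the Ctrl groups these ranges were -0.22 to -0.04 and -0.12 to 0.02.

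At the level of transcripts, ENSMUST00000023486.14 averaged 10.3 ± 2.17 CPM in RF.Ctrl against 40.3 ± 3.07 in RF.SAAR, and 8.87 ± 1.15 CPM in HF.Ctrl against 33.2 ± 6.73 in HF.SAAR (SD, n = 3 each). Its HF log2 fold change was 1.90 with SE 0.19, with an edgeR adjusted p of 0.00227 over 35707 transcripts. ENSMUST00000128285.1, which has no coding part and holds the same 4 windows, averaged between 1.32 and 4.29 CPM by group. Its log2 fold change was -0.64 with SE 1.37 on RF and 0.48 with SE 1.34 on HF, where it did not pass (adjusted p = 1). None of the 31-base words of the main Tfrc transcript occurs in another gene.

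Tfr2 encodes the hepatocyte receptor that senses transferrin-bound iron. Tfr2 had 250, 267 and 269 CPM in RF.Ctrl mice 1, 2 and 3, and 226, 220 and 191 CPM in RF.SAAR. It had 265, 264 and 258 CPM in HF.Ctrl, and 216, 200 and 212 CPM in HF.SAAR. Every SAAR mouse was below every Ctrl mouse of the same fat content. The log2 fold change was -0.30 (SE 0.09, adjusted p = 0.123) on RF and -0.33 (SE 0.09, adjusted p = 0.0909) on HF, and neither passed. Averaged over fat Tfr2 fell by 0.32 on the log2 scale (SE 0.06, adjusted p = 0.00947). DESeq2 called Tfr2 on RF (adjusted p = 0.0126, in a range of 0.0126 to 0.489 over 10 settings) and on HF (0.00384, in a range of 0.00384 to 0.718). Scaling by library size alone ended the averaged call (-0.15, adjusted p = 0.175), as did the 7 mice with low acinar sums (-0.31, adjusted p = 0.232), where adjusted p was in a range of 7.51e-06 to 0.232 over 9 settings. On the TPM scale, which has no such factor, mean Tfr2 was 97.4 in RF.Ctrl, 95.2 in RF.SAAR, 88.2 in HF.Ctrl and 87.6 in HF.SAAR.

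The ratio of the 2 receptor RNAs was also read in each liver. Tfrc TPM over Tfr2 TPM was 0.0345, 0.0435 and 0.0345 in RF.Ctrl mice 1, 2 and 3, and 0.144, 0.143 and 0.131 in RF.SAAR. The same ratio was 0.0382, 0.037 and 0.0364 in HF.Ctrl, and 0.142, 0.123 and 0.102 in HF.SAAR. Each SAAR liver had a higher ratio than any Ctrl liver, and this is a description, as the RF values of Tfrc are within it.

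**Figure D2:**
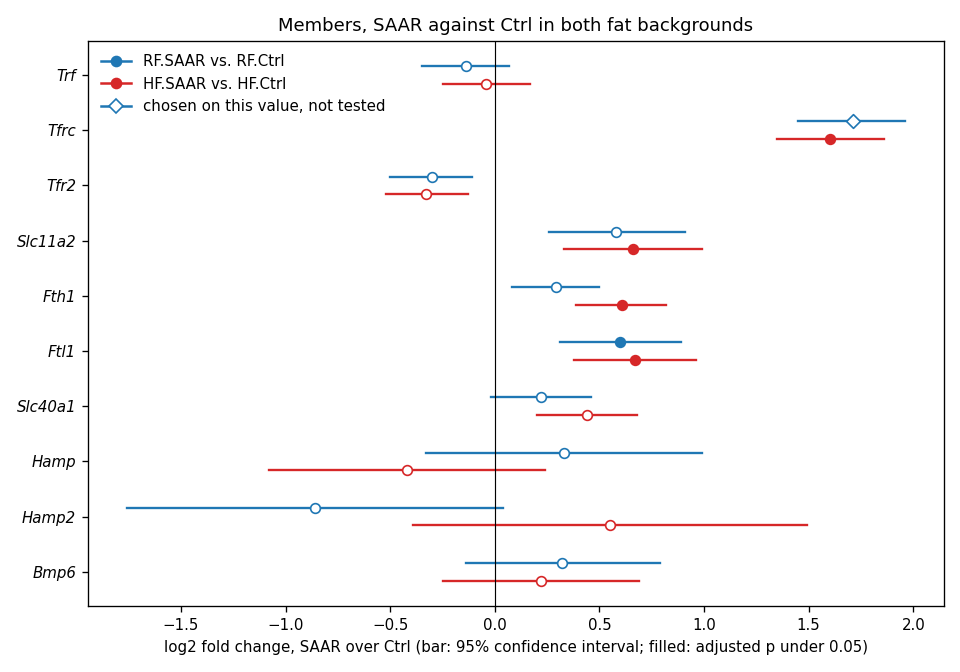
Log2 fold change, SAAR over Ctrl, of the 10 members on RF and on HF, with 95% confidence intervals as bars. Filled circles are calls at an adjusted p under 0.05, open circles did not pass, and the open diamond is the Tfrc value on RF that chose it and was not tested. On HF, Tfrc stands at 1.60, Ftl1 at 0.67, Slc11a2 at 0.66 and Fth1 at 0.61.

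The plot of member fold changes sets Tfrc, Slc11a2, Fth1, Ftl1 and Slc40a1 to the right of 0 and Tfr2 to the left on both fat contents. Bmp6 is also to the right on both, with intervals that cross 0, Trf is near 0, and the intervals of Hamp and Hamp2 are the widest. Slc11a2 encodes the transporter that brings ferrous iron out of the endosome. It had 23, 33.6 and 23.1 CPM in RF.Ctrl mice 1, 2 and 3, and 45, 33.7 and 40.7 CPM in RF.SAAR. It had 26.4, 25.3 and 23.4 CPM in HF.Ctrl, and 43.5, 36.5 and 38.5 CPM in HF.SAAR. In CPM the groups did not overlap in either fat background, although RF.Ctrl 2 and RF.SAAR 2 nearly met. As TPM they overlapped on RF, with 13.8 in RF.Ctrl 2 and 12.9 in RF.SAAR 2.

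Slc11a2 rose on HF, at 0.66 on the log2 scale (SE 0.15, adjusted p = 0.0403), and averaged over fat, with 0.62 (SE 0.11, adjusted p = 0.0036). On RF it was 0.58 (SE 0.15, adjusted p = 0.0833) and did not pass, and the interaction was 0.08 (SE 0.21, adjusted p = 0.999). With 1 mouse left out the interaction was between -0.13 and 0.17, and over settings between 0.01 and 0.39. The HF call was lost without RF.SAAR 3, without any of the 3 HF.Ctrl mice and without any of the 3 HF.SAAR mice, each in turn, with values from 0.59 to 0.71 and adjusted p from 0.06 to 0.166. Without RF.Ctrl 2 the RF value was 0.79 and was called (adjusted p = 0.0228), as it was with DESeq2 (0.59, adjusted p = 0.0144) and by library size alone (0.75, adjusted p = 0.0336). In the 7 mice with low acinar sums Slc11a2 was not called on either fat content (0.49 on RF and 0.87 on HF) or averaged over fat (0.68, adjusted p = 0.106). Over all settings its adjusted p was between 0.0144 and 0.365 on RF, 0.00325 and 0.42 on HF, and 7.51e-06 and 0.106 averaged over fat.

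Slc11a2 is known to make transcripts with and without an iron-responsive element. By the stricter rule none of its transcripts had a window, and by the looser rule ENSMUST00000138843.7 had 1, with 4 of 5 upper pairs and 1 of 5 lower pairs, in its 3′ UTR on the minus strand at chr15:100395154-100395180 in GRCm38. It is printed to show how it departs from the Tfrc form, with the loop in capitals.
Slc11a2 window: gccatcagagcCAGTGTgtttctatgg
That transcript averaged 20.5 ± 4.92 CPM in RF.Ctrl against 33.5 ± 4.74 in RF.SAAR, and 19.5 ± 2.16 CPM in HF.Ctrl against 32.1 ± 2.65 in HF.SAAR (SD, n = 3 each). ENSMUST00000023774.11, whose 3′ end lacks the window, averaged 4.15 CPM in RF.Ctrl, 2.96 in RF.SAAR, 3.62 in HF.Ctrl and 4.29 in HF.SAAR. A second tested transcript with no window, the 709-base ENSMUST00000140535.1 with 39.6% of the gene's TPM, averaged 1.84 CPM in RF.Ctrl, 3.21 in RF.SAAR, 1.96 in HF.Ctrl and 2.87 in HF.SAAR. The log2 fold change of the transcript with the window was 0.71 on RF and 0.72 on HF, each with SE 0.17, of ENSMUST00000023774.11 -0.49 and 0.25, each with SE 0.32, and of ENSMUST00000140535.1 0.81 and 0.53, each with SE 0.44. So 1 of the 2 transcripts without a window lay in the same direction as the transcript with it on both fat contents. None passed over 35707 transcripts, where edgeR called 53 on RF and 127 on HF (adjusted p of 0.205 and 0.163 with the window). The difference between the transcripts was not tested.

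**Figure D3:**
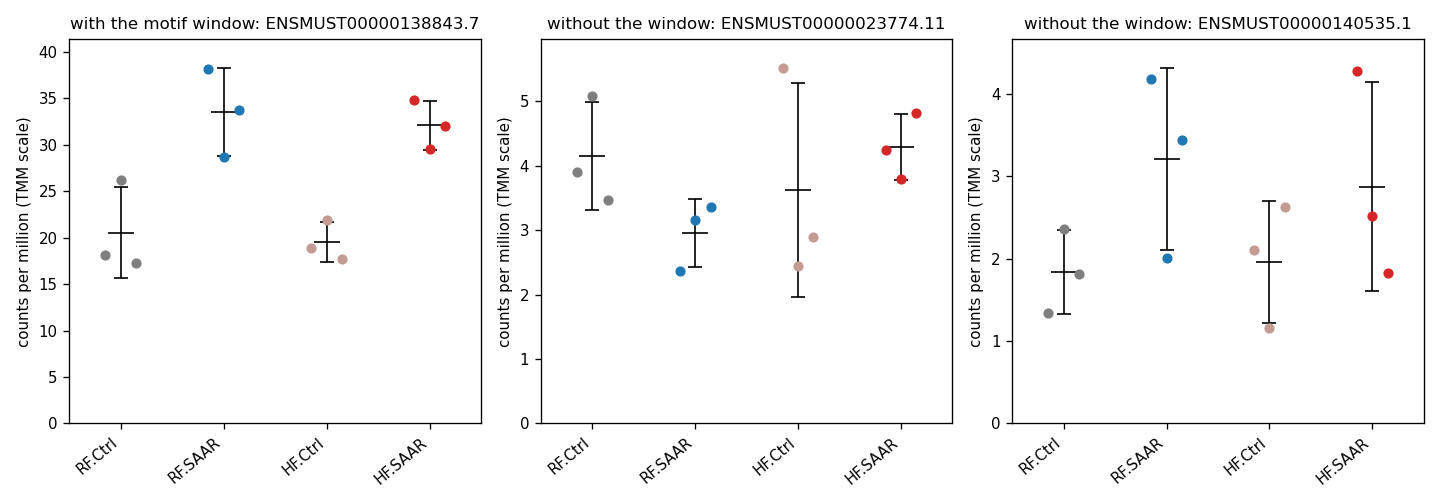
The 3 tested Slc11a2 transcripts, 1 with and 2 without the motif window, in each liver, in CPM on the TMM scale, with axes that start at 0. Points are single mice, 3 per group, and bars are the mean and SD. In the transcript with the window, the 6 SAAR mice lie between 28.7 and 38.2 CPM and the 6 Ctrl mice between 17.3 and 26.2 CPM.

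The plot of Slc11a2 transcripts also shows that HF.Ctrl 1, at 5.52 CPM, holds the highest value of ENSMUST00000023774.11, and that the values of ENSMUST00000140535.1, between 1.16 and 4.28 CPM, overlap between the diets.

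Ferritin stores iron in a shell of heavy chains, from Fth1, which oxidize iron, and light chains, from Ftl1. Both genes have 1 window by the stricter rule in the 5′ UTR of their most abundant transcript, in GRCm38 at chr19:9982733-9982759 on the plus strand for Fth1 and at chr7:45459780-45459806 on the minus strand for Ftl1. The windows are shown because ferritin mRNA is the known counterpart of Tfrc in iron control. Capitals mark the loop.
Fth1 window: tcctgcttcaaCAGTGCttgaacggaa
Ftl1 window: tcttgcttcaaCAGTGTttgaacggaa
Fth1 had 1131, 1123 and 982 CPM in RF.Ctrl mice 1, 2 and 3, and 1211, 1457 and 1280 CPM in RF.SAAR. It had 1108, 1105 and 980 CPM in HF.Ctrl, and 1657, 1689 and 1512 CPM in HF.SAAR. The SAAR mice were above the Ctrl mice in both backgrounds, and the 3 HF.SAAR mice were the highest of all 12. Fth1 rose on HF (log2 fold change 0.61, SE 0.10, adjusted p = 0.00598) and averaged over fat (0.45, SE 0.07, adjusted p = 0.00185). On RF it was 0.29 (SE 0.10, adjusted p = 0.187), and the interaction was 0.32 (SE 0.14, unadjusted p = 0.0376, adjusted p = 0.999). Without each mouse in turn its HF adjusted p was between 0.00376 and 0.0349. In the 7 mice with low acinar sums Fth1 was not called on HF (0.74, adjusted p = 0.309) or averaged over fat (0.53, adjusted p = 0.0782), and by library size alone it was called on RF (0.45, adjusted p = 0.0123). Over all settings its adjusted p was between 0.0123 and 0.434 on RF, 3.21e-07 and 0.309 on HF, and 3.03e-08 and 0.0782 averaged over fat.

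Ftl1 had 2722, 2536 and 2082 CPM in RF.Ctrl mice 1, 2 and 3, and 3315, 4131 and 3701 CPM in RF.SAAR. It had 2912, 2950 and 2246 CPM in HF.Ctrl, and 4338, 4750 and 3779 CPM in HF.SAAR. Again every SAAR mouse exceeded every Ctrl mouse of its fat content. Ftl1 rose on RF (log2 fold change 0.60, SE 0.13, adjusted p = 0.0428), on HF (0.67, SE 0.13, adjusted p = 0.0208) and averaged over fat (0.63, SE 0.10, adjusted p = 0.00149). The RF call was lost on leaving out any 1 of 10 mice (all but HF.Ctrl 3 and HF.SAAR 2), with values from 0.50 to 0.69 and adjusted p from 0.0512 to 0.183. It was also lost in the compared groups alone (0.60, adjusted p = 0.0647), in the most abundant transcript (0.61, adjusted p = 0.202) and in the mice with low acinar sums (0.69, adjusted p = 0.0923), in a range of 0.00156 to 0.202 over 10 settings. The HF call was lost without HF.Ctrl 1, HF.Ctrl 3, HF.SAAR 1 or HF.SAAR 2 (0.55 to 0.72, adjusted p from 0.0628 to 0.0823), in the most abundant transcript (0.66, adjusted p = 0.12) and in the mice with low acinar sums (0.93, SE 0.23, adjusted p = 0.266), in a range of 0.000248 to 0.266. The interaction was 0.06 (SE 0.19), between 0.05 and 0.24 over settings and between -0.05 and 0.17 with 1 mouse left out.

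Of the 31-base words of the main Ftl1 transcript, 80.6% also occur in Ftl1-ps1, a pseudogene with a mean of 3.41 TPM, while for Fth1 12.9% occur in other genes. The ratio of the chains was also read. Fth1 TPM over Ftl1 TPM was 0.459, 0.485 and 0.522 in RF.Ctrl mice 1, 2 and 3 and 0.4, 0.386 and 0.381 in RF.SAAR. It was 0.423, 0.417 and 0.486 in HF.Ctrl and 0.417, 0.389 and 0.439 in HF.SAAR. The RF groups did not overlap, the HF groups did, and no test was run on this ratio.

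Slc40a1 encodes ferroportin, the cell's iron exporter. It too has 1 window by the stricter rule in the 5′ UTR of its most abundant transcript, on the minus strand at chr1:45925466-45925492 in GRCm38, with all 5 lower positions able to pair. It is shown to set the exporter beside ferritin, with the loop in capitals.
Slc40a1 window: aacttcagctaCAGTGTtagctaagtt
Slc40a1 had 142, 134 and 129 CPM in RF.Ctrl mice 1, 2 and 3, and 153, 143 and 177 CPM in RF.SAAR. It had 125, 120 and 150 CPM in HF.Ctrl, and 172, 173 and 191 CPM in HF.SAAR. The RF groups barely separated and the HF groups were further apart. Slc40a1 rose averaged over fat, with an adjusted p of 0.0229 and a log2 fold change of 0.33 (SE 0.08). It was 0.22 on RF (SE 0.11, adjusted p = 0.423) and 0.44 on HF (SE 0.11, adjusted p = 0.0687), and the interaction was 0.22 (SE 0.16, adjusted p = 0.999). Leaving out RF.SAAR 3 took the RF value to 0.14 (adjusted p = 0.809). In the mice with low acinar sums the HF value was 0.18 (adjusted p = 0.843) and the interaction turned to -0.08. By library size alone the RF value was 0.39 (adjusted p = 0.141). DESeq2 (adjusted p = 0.00562), library size alone (0.025), the effective-length offset (0.036) and leaving out HF.Ctrl 3 (0.54, adjusted p = 0.04) each called it on HF. The averaged call was lost without RF.Ctrl 2, RF.Ctrl 3, RF.SAAR 3, HF.Ctrl 1 or HF.SAAR 3 (0.29 to 0.33, adjusted p from 0.0561 to 0.0716), in the most abundant transcript (0.0595) and in the mice with low acinar sums (0.22, adjusted p = 0.423). Over all settings its adjusted p was between 0.00562 and 0.843 on HF and between 0.00117 and 0.423 averaged over fat.

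Hamp encodes hepcidin. It had 494, 384 and 408 CPM in RF.Ctrl mice 1, 2 and 3, and 399, 882 and 338 CPM in RF.SAAR. In HF.Ctrl it was 440, 437 and 356 CPM, and in HF.SAAR 307, 275 and 337 CPM. RF.SAAR 2 stood far above all other mice. In CPM the 3 HF.SAAR mice were the lowest, although HF.SAAR 3 and RF.SAAR 3 nearly met, at 337 and 338 CPM. As TPM the HF groups overlapped, with 2203 in HF.SAAR 3 above the 3 HF.Ctrl mice (1874 to 2071). The log2 fold change was 0.33 on RF (SE 0.30, adjusted p = 0.726) and -0.42 on HF (SE 0.30, adjusted p = 0.646). The RF value turned to -0.22 without RF.SAAR 2. HF.SAAR vs. RF.SAAR gave -0.82 (SE 0.30, unadjusted p = 0.0204, adjusted p = 0.805), and -0.27 without RF.SAAR 2. With this spread the HF interval of Hamp reached from -1.08 to 0.24.

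Hamp2 is the neighbouring copy of Hamp in mice. It had 13.4, 6.11 and 6.37 CPM in RF.Ctrl mice 1, 2 and 3, and 5.69, 5.67 and 2.87 CPM in RF.SAAR. The HF.Ctrl mice had 3.57, 2.54 and 3.66 CPM, and the HF.SAAR mice 5.43, 6.62 and 2.28 CPM. RF.Ctrl 1 was the highest and the 3 HF.Ctrl mice were all lower than the 3 RF.Ctrl mice. In HF.Ctrl vs. RF.Ctrl the log2 fold change was -1.41 (SE 0.43, unadjusted p = 0.00646, adjusted p = 1), while SAAR over Ctrl gave -0.86 on RF (SE 0.41, adjusted p = 0.399) and 0.55 on HF (SE 0.43, adjusted p = 0.687), with an interaction of 1.41 (SE 0.60, unadjusted p = 0.0361, adjusted p = 0.999). Without RF.Ctrl 1 the Hamp2 values were -0.94 in HF.Ctrl vs. RF.Ctrl, -0.39 on RF and 0.94 for the interaction, and the HF value was 0.22 without HF.SAAR 2 and 0.89 without HF.SAAR 3. Counts per mouse were between 46 and 234. Of the 31-base words of Hamp2, 32.8% also occur in Hamp, and 33.7% of those of Hamp in Hamp2, while Hamp2 TPM was between 0.00557 and 0.0261 of Hamp TPM.

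Bmp6 encodes the ligand, made mainly by liver endothelial cells, that drives hepcidin expression. It was the least abundant member, with 72 to 188 counts and 4.92 to 9.97 CPM per mouse. Its group means were 6.98 ± 1.77 CPM in RF.Ctrl, 8.73 ± 1.75 in RF.SAAR, 5.95 ± 1.02 in HF.Ctrl and 6.95 ± 0.96 in HF.SAAR (SD, n = 3 each). Groups overlapped, and the log2 fold change was 0.32 on RF (SE 0.22, adjusted p = 0.588) and 0.22 on HF (SE 0.22, adjusted p = 0.761). The Bmp6 RF value was 0.15 without RF.Ctrl 2, 0.52 without RF.Ctrl 3 and 0.49 without RF.SAAR 3, and its HF value was 0.10 without HF.Ctrl 1, 0.35 without HF.Ctrl 2 and 0.11 without HF.SAAR 3. The HF value was -0.00 in the mice with low acinar sums and 0.39 by library size alone, which gave 0.49 on RF.

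Beyond the members, 99 other genes of iron and heme handling were listed by role, and 94 were tested (Steap1, Cybrd1, Ftmt, Hephl1 and Erfe were not). On RF 3 of the 94 were called, 2 higher and 1 lower, and on HF 6, of which 3 higher and 3 lower. Averaged over fat 13 were called, 7 higher and 6 lower. These are 3.19%, 6.38% and 13.8% of the 94, beside 1.49%, 1.97% and 6.92% of all tested genes. Medians of the log2 fold change were 0.04, 0.03 and 0.04, beside -0.00 for all genes in each. With edgeR, 0 of the 94 were called in the comparisons of fat content and in the interaction, where 5 (between SAAR groups), 2 (between Ctrl groups), 4 (interaction) and 5 (HF vs. RF averaged over diet) had an unadjusted p under 0.05, and DESeq2 called 0, 0, 0 and 1. In the same order, 5.59%, 3.59%, 3.15% and 5.84% of all tested genes had an unadjusted edgeR p under 0.05. In the 7 mice with low acinar sums the counts were 1 on RF, 0 on HF by edgeR and 3 averaged over fat.

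**Figure D4:**
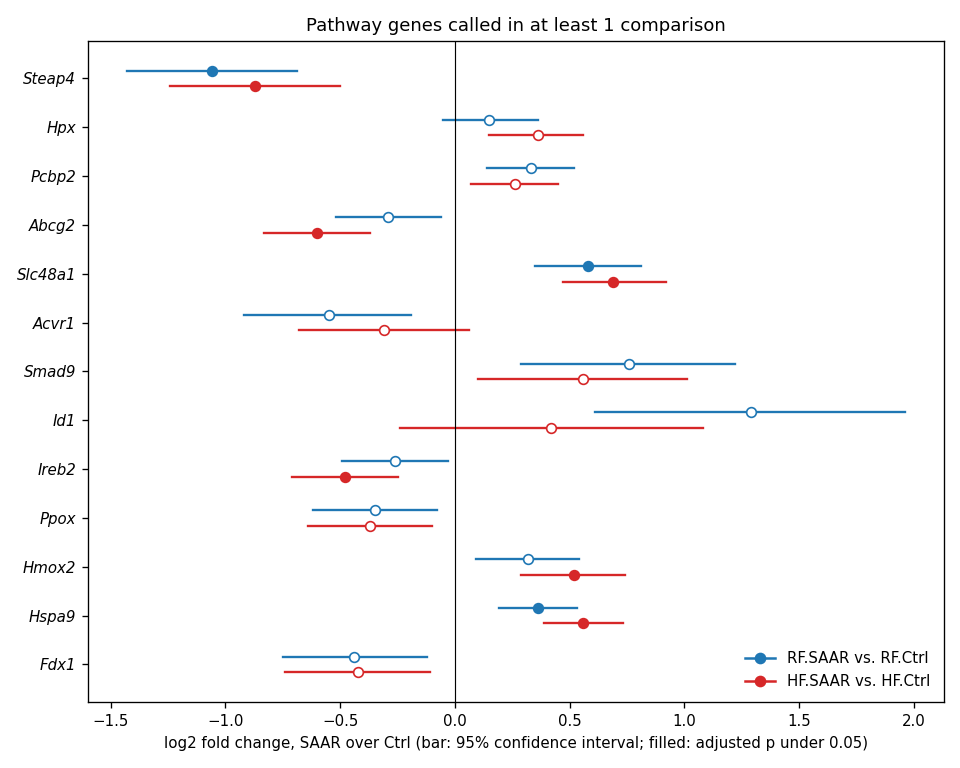
Log2 fold change, SAAR over Ctrl, on RF and on HF, for the 13 listed iron and heme genes called in at least 1 comparison, with 95% confidence intervals as bars. Filled circles are calls at an adjusted p under 0.05 in that fat background and open circles did not pass. Steap4 stands at -1.06 on RF and -0.87 on HF, and Slc48a1 at 0.58 and 0.69.

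As the plot of called pathway genes shows, the largest called value was that of Steap4, a metalloreductase that reduces ferric iron. It had 192, 118 and 122 CPM in RF.Ctrl mice 1, 2 and 3, and 62.8, 67.2 and 77.3 CPM in RF.SAAR. In HF.Ctrl it was 138, 150 and 134 CPM, and in HF.SAAR 73.8, 68.1 and 88.9 CPM. Every SAAR mouse was below every Ctrl mouse. Steap4 fell by 1.06 on RF (SE 0.17, adjusted p = 0.00818) and by 0.87 on HF (SE 0.17, adjusted p = 0.0192) on the log2 scale, as 1 called gene of 11 tested for iron uptake and reduction on each fat content. Its HF call was lost without any 1 HF.Ctrl mouse, HF.SAAR 1 or HF.SAAR 2 (adjusted p from 0.0521 to 0.0896) and in the mice with low acinar sums (-0.88, adjusted p = 0.248), and both calls were lost in its most abundant transcript (-1.06, adjusted p = 0.0716 on RF, and -0.88, adjusted p = 0.108 on HF). Over all settings the adjusted p was between 7.06e-07 and 0.0716 on RF and between 8.38e-05 and 0.248 on HF. The heme carrier gene Hpx, the most abundant of that list at 1717 TPM, rose averaged over fat (0.25, SE 0.07, adjusted p = 0.0382). That call was lost on leaving out any 1 of 10 mice (all but RF.SAAR 2 and HF.Ctrl 2), with values from 0.22 to 0.28 and adjusted p from 0.0524 to 0.113. It was also lost in the most abundant transcript (0.25, adjusted p = 0.12) and in the mice with low acinar sums (0.25, adjusted p = 0.32), in a range of 0.00176 to 0.32. On HF Hpx was 0.36 (adjusted p = 0.086), and it was called there by library size alone (0.53, adjusted p = 0.0091), DESeq2 (0.36, adjusted p = 0.00939) and the effective-length offset (0.43, adjusted p = 0.0303).

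Among iron chaperones and storage genes, Pcbp2, whose protein delivers iron to ferritin, rose averaged over fat (0.29, SE 0.06, adjusted p = 0.0121), as 1 of 5 tested. It was called with each mouse left out, and was lost in its most abundant transcript (0.29, adjusted p = 0.128) and in the mice with low acinar sums (0.33, adjusted p = 0.173), in a range of 3.53e-06 to 0.173. Library size alone and DESeq2 called Pcbp2 on RF (0.50, adjusted p = 0.013, and 0.34, adjusted p = 0.000926) and on HF (0.43, adjusted p = 0.0153, and 0.26, adjusted p = 0.0218). Of 6 tested genes of iron and heme export, Slc48a1, which moves heme out of endosomes and lysosomes, rose on RF (0.58, SE 0.11, adjusted p = 0.0141) and on HF (0.69, SE 0.11, adjusted p = 0.00392). Slc48a1 had 28, 31.3 and 31.4 CPM in RF.Ctrl, and 40.1, 46.7 and 48.7 CPM in RF.SAAR. The HF.Ctrl mice had 32.5, 34.6 and 29.6 CPM, and the HF.SAAR mice 56.6, 51 and 48.7 CPM, with no overlap between diets. Its RF call was lost without any 1 RF.Ctrl mouse or RF.SAAR 3 (adjusted p from 0.0533 to 0.0677) and in its most abundant transcript (0.61, adjusted p = 0.0716), and both calls were lost in the mice with low acinar sums (0.53, adjusted p = 0.151 on RF, and 0.92, adjusted p = 0.23 on HF), the highest adjusted p of ranges that began at 7.61e-05 and 6.3e-07. Abcg2, an exporter of porphyrins and heme among other substrates, fell by 0.60 on HF (SE 0.11, adjusted p = 0.0105), a call that library size alone (-0.44, adjusted p = 0.0625), the most abundant transcript (-0.62, adjusted p = 0.0528) and the mice with low acinar sums (-0.70, adjusted p = 0.347) ended, in a range of 8.21e-06 to 0.347. On RF Abcg2 was -0.29 (adjusted p = 0.227), and the interaction was -0.31 (SE 0.15, adjusted p = 0.999). Cp, the ferroxidase of plasma and the most abundant gene of that list at 383 TPM, was -0.00 on RF and 0.20 on HF (SE 0.09 each) and was not called, although library size alone called it averaged over fat (0.26, adjusted p = 0.0438).

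Of 21 tested genes of hepcidin control, 0 were called by edgeR on RF or on HF. There 5 and 3 had an unadjusted p under 0.05, beside 13.6% and 12.4% of all tested genes. Among the 21, DESeq2 called Smad9 (adjusted p = 0.0185, in a range of 0.0185 to 0.37 over settings) and Id1 (0.00223, in a range of 0.00223 to 0.289) on RF. By library size alone edgeR called both on RF (0.0384 for Smad9 and 0.0186 for Id1), and with the effective-length offset it called Id1 (0.0497). Averaged over fat, 3 were called. The BMP receptor gene Acvr1 fell by 0.43 (SE 0.12, adjusted p = 0.0482), and Smad9, a signal transducer of BMP receptors, and Id1, a known BMP target, rose by 0.66 (SE 0.15, adjusted p = 0.0199) and 0.86 (SE 0.22, adjusted p = 0.0339). Id1 had 4.63, 6.96 and 5.1 CPM in RF.Ctrl, and 9.7, 20.1 and 11.1 CPM in RF.SAAR. In HF.Ctrl it was 5.8, 11.2 and 8.11 CPM, and in HF.SAAR 8.52, 13.4 and 11.8 CPM. RF.SAAR 2, the mouse with the highest Hamp, also had the highest Id1. The averaged call of Acvr1 was kept without RF.Ctrl 3 or HF.Ctrl 2 and lost without each of the other 10 mice (adjusted p from 0.0612 to 0.122), and it was called in 4 of 9 settings (adjusted p from 0.0297 to 0.813). That of Smad9 was lost without RF.Ctrl 2 (0.59, adjusted p = 0.0522), in the most abundant transcript (0.65, adjusted p = 0.0963) and in the mice with low acinar sums (0.78, adjusted p = 0.164), in a range of 0.000739 to 0.164. That of Id1 was lost without RF.Ctrl 1, RF.Ctrl 3, RF.SAAR 2, HF.Ctrl 1, HF.Ctrl 3, HF.SAAR 2 or HF.SAAR 3 (0.66 to 0.84, adjusted p from 0.052 to 0.0894), with no filter beyond a count above 0 (0.86, adjusted p = 0.0678), in the most abundant transcript (0.90, adjusted p = 0.176) and in the mice with low acinar sums (0.61, adjusted p = 0.403), in a range of 0.00233 to 0.403. Fgl1, at 222 TPM the most abundant gene of the list, was 0.30 on RF (SE 0.34) and 0.14 on HF (SE 0.33) and passed no test.

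The iron regulatory proteins are encoded by Aco1 and Ireb2. Ireb2 had 93.1, 105 and 107 CPM in RF.Ctrl mice 1, 2 and 3, and 83.8, 83.2 and 88.4 CPM in RF.SAAR. The HF.Ctrl mice had 114, 105 and 130 CPM, and the HF.SAAR mice 76.7, 83 and 90.4 CPM. In CPM each SAAR mouse was below each Ctrl mouse. As TPM the diets overlapped on both fat contents, with means of 19 in RF.Ctrl, 19.4 in RF.SAAR, 19.8 in HF.Ctrl and 18 in HF.SAAR. Ireb2 fell by 0.48 on HF (SE 0.11, adjusted p = 0.0344) and by 0.37 averaged over fat (SE 0.08, adjusted p = 0.0101), and on RF it was -0.26 (SE 0.11, adjusted p = 0.296). The HF call was lost in 6 of 10 settings and on leaving out RF.Ctrl 2, HF.Ctrl 1, HF.Ctrl 3 or any of the 3 HF.SAAR mice (adjusted p from 0.0541 to 0.163), and over settings the adjusted p was between 0.00119 and 0.245, the highest in the mice with low acinar sums, where the value was -0.78. The averaged call was lost by library size alone (-0.21, adjusted p = 0.152). The interaction was -0.22 (SE 0.15, adjusted p = 0.999). Aco1, at 48 TPM the more abundant of this list, was -0.23 on RF and -0.21 on HF (SE 0.11 each, adjusted p of 0.372 and 0.467). Over settings it was between -0.25 and -0.07 on RF and between -0.41 and -0.05 on HF. Its mean TPM was 49.4 in RF.Ctrl, 50 in RF.SAAR, 44.9 in HF.Ctrl and 47.6 in HF.SAAR.

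In heme synthesis and breakdown, 1 of 12 tested genes was called on HF, Hmox2, the constitutive heme oxygenase (0.52, SE 0.10, adjusted p = 0.0201), a call lost without HF.Ctrl 1, HF.Ctrl 3, HF.SAAR 1 or HF.SAAR 2 (adjusted p from 0.072 to 0.11), in the compared groups alone (0.51, adjusted p = 0.0755), in the most abundant transcript (0.65, adjusted p = 0.278) and in the mice with low acinar sums (0.59, adjusted p = 0.397), in a range of 0.000142 to 0.397. On RF Hmox2 was 0.32 (adjusted p = 0.167) and was called by library size alone (0.48, adjusted p = 0.0157), and the interaction was 0.20 (SE 0.15, adjusted p = 0.999). Averaged over fat it rose by 0.42 (SE 0.07, adjusted p = 0.00408), and Ppox, an enzyme late in heme synthesis, fell by 0.36 (SE 0.09, adjusted p = 0.0247), a call lost without RF.Ctrl 2, RF.SAAR 2, HF.Ctrl 2, HF.SAAR 1 or HF.SAAR 2 (adjusted p from 0.0513 to 0.0692), by library size alone (-0.19, adjusted p = 0.206), in the most abundant transcript (-0.38, adjusted p = 0.392) and in the mice with low acinar sums (-0.51, adjusted p = 0.099), in a range of 0.00875 to 0.392. The averaged Hmox2 call was lost in the mice with low acinar sums (0.46, adjusted p = 0.0964). Alas1, the rate-limiting enzyme of heme synthesis in liver, varied widely, with 130 CPM in RF.Ctrl 2 and 119 CPM in HF.Ctrl 3 beside 823 CPM in RF.Ctrl 1, and was -0.59 on RF and -0.47 on HF (SE 0.74 each). In the mice with low acinar sums Alas1 turned to 1.13 on HF and to 0.51 averaged over fat (-0.53 with all mice), and was -0.10 on RF. Leaving out RF.Ctrl 2 took its RF value to -1.05 and leaving out HF.Ctrl 3 its HF value to -0.92. Of 29 tested genes of mitochondrial iron and iron-sulfur clusters, Hspa9, the mitochondrial chaperone of cluster transfer, was called on both fat contents (0.36, SE 0.08, adjusted p = 0.0359 on RF, and 0.56, SE 0.08, adjusted p = 0.0018 on HF). It had 527, 556 and 564 CPM in RF.Ctrl, and 681, 702 and 733 CPM in RF.SAAR. In HF.Ctrl it was 495, 511 and 510 CPM, and in HF.SAAR 725, 728 and 785 CPM, with no overlap. Its RF call was kept without HF.Ctrl 2, HF.Ctrl 3, HF.SAAR 2 or HF.SAAR 3 and lost without each of the other 8 mice (adjusted p from 0.0635 to 0.13), with no filter beyond a count above 0 (0.0787), in the compared groups alone (0.123) and in the most abundant transcript (0.0716), at 0.36 in all 3. Both calls were lost in the mice with low acinar sums (0.33, adjusted p = 0.304 on RF, and 0.49, adjusted p = 0.467 on HF), the highest adjusted p of ranges that began at 5.5e-06 and 1.7e-14. Fdx1, a ferredoxin that feeds electrons to cluster assembly, fell by 0.43 averaged over fat (SE 0.10, adjusted p = 0.0226), a call lost without RF.Ctrl 3, RF.SAAR 1, HF.Ctrl 1 or HF.SAAR 1 (adjusted p from 0.0559 to 0.0675), by library size alone (-0.26, adjusted p = 0.0689), in the most abundant transcript (-0.48, adjusted p = 0.0837) and in the mice with low acinar sums (-0.40, adjusted p = 0.204), in a range of 0.00229 to 0.204.

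Alas2, the erythroid form of the first enzyme of heme synthesis, is also an mRNA with a known 5′ iron-responsive element, and was named after its values were seen. The window, in GRCm38 at chrX:150547459-150547485 on the plus strand, is shown because Alas2 moved against the members with the same kind of window, with the loop in capitals.
Alas2 window: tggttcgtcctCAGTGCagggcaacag
Alas2 had 113, 111 and 105 CPM in RF.Ctrl mice 1, 2 and 3, and 47.5, 62.5 and 62 CPM in RF.SAAR. It had 121, 99.5 and 115 CPM in HF.Ctrl, and 49.4, 41.1 and 40.2 CPM in HF.SAAR. All 6 SAAR mice were below all 6 Ctrl mice. Alas2 fell by 0.94 on RF (SE 0.13, adjusted p = 0.00303) and by 1.36 on HF (SE 0.13, adjusted p = 9.56e-05) on the log2 scale. Leaving out each mouse in turn kept both calls, and the mice with low acinar sums ended the HF call (-1.24, adjusted p = 0.139, in a range of 5.69e-21 to 0.139 over 10 settings).

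Other erythroid markers differed between the diets less evenly. The 9 matched genes of the erythroid list summed to 597, 675 and 607 CPM in RF.Ctrl mice 1, 2 and 3 and to 319, 396 and 367 CPM in RF.SAAR. The sums were 471, 458 and 447 CPM in HF.Ctrl and 346, 556 and 246 CPM in HF.SAAR. On RF the SAAR sums were below the Ctrl sums, while on HF the groups overlapped through HF.SAAR 2. The most abundant gene was Hbb-bs, at a mean of 447 TPM, at -0.76 on the log2 scale on RF (SE 0.26, adjusted p = 0.213) and -0.00 on HF (SE 0.26, adjusted p = 0.998). Without HF.SAAR 2, Hbb-bs was called on RF (-0.75, adjusted p = 0.0114) and averaged over fat (-0.62, adjusted p = 0.00221), and edgeR also called it on RF in the compared groups alone (-0.76, adjusted p = 0.0162) and in the mice with low acinar sums (-0.78, adjusted p = 0.0386), in a range of 0.0162 to 0.458 over settings. The defining markers Slc4a1 and Epb42 were near 0, with at most 8 and 5 counts in a mouse and 0 counts in 3 and 1 of the 12 mice. All 6 tested markers were below 0 on RF with an unadjusted p under 0.05 (median -0.78), and on HF 1 of 6 had such a p (median -0.12). With TMM factors and all 12 mice, edgeR called Alas2 alone among them on each fat content. In bulk RNA, fewer cells of a type and less RNA per cell cannot be told apart, and the part of erythroid RNA in the member results was not tested.

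**Figure D5:**
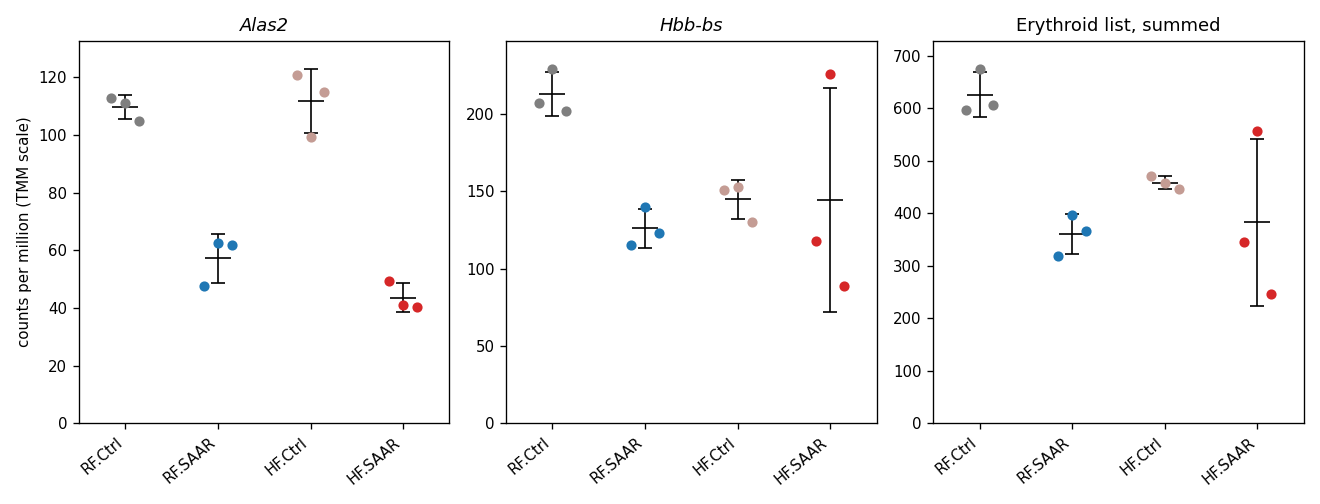
Alas2, Hbb-bs and the summed erythroid list in each liver, in CPM on the TMM scale, with axes that start at 0. Points are single mice, 3 per group, and bars are the mean and SD. Alas2 lies between 99.5 and 121 CPM in the 6 Ctrl mice and between 40.2 and 62.5 CPM in the 6 SAAR mice, while Hbb-bs reaches 226 CPM in HF.SAAR 2.

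The plot of erythroid markers sets Alas2, which separated the diets on both fat contents, beside the globin gene Hbb-bs, which did so on RF alone. On HF, Hbb-bs was at 118 CPM in HF.SAAR 1 and 88.8 CPM in HF.SAAR 3, below the HF.Ctrl mice (130 to 153 CPM). HF.SAAR 2, at 226 CPM, was above them. Among the other cell types that handle iron, the 11 Kupffer cell and macrophage genes, led by Clec4f at 56.7 TPM, summed to means of 462 CPM in RF.Ctrl, 445 in RF.SAAR, 428 in HF.Ctrl and 515 in HF.SAAR, and 0 were called by edgeR on either fat content (1 on RF and 0 on HF at an unadjusted p under 0.05). Their median log2 fold change was -0.09 on RF, with 4 of 11 above 0, and 0.28 on HF, with 11 of 11 above 0. In the interaction 11 of 11 were above 0 with a median of 0.29, and edgeR called 0, with 3 at an unadjusted p under 0.05. The 10 sinusoidal endothelial genes, led by Clec4g at 71.9 TPM, summed to means of 383, 394, 374 and 387 CPM, with 0 called by edgeR on RF or on HF, 1 at an unadjusted p under 0.05 in each, and medians of 0.03 and 0.05. The 10 stellate cell genes, led by Dcn at 93.4 TPM, summed to means of 418, 386, 430 and 410 CPM, and 1 was called lower on RF, Lrat, named after its values were seen (-0.86, SE 0.19, adjusted p = 0.0408), with -0.32 on HF (SE 0.19, adjusted p = 0.548) and an interaction of 0.54 (SE 0.27, adjusted p = 0.999). The 10 lymphocyte genes, led by Cd79a at 1.24 TPM, summed to 26.1 CPM in HF.SAAR 3 and to between 3.23 and 13.6 CPM in the other mice, and the 12 genes of dividing cells, led by Rrm2 at 4.26 TPM, to between 16.4 and 21.9 CPM, with 1 of them, Plk1, at 0 in 1 mouse. In neither list was a gene called on RF or HF by edgeR, where 2 lymphocyte genes on HF had an unadjusted p under 0.05. Averaged over fat, edgeR called 1 sinusoidal endothelial gene higher and 1 stellate gene lower, where 6.92% of all tested genes were called. Medians on RF and HF were -0.07 and -0.16 for the stellate list, 0.44 and 1.28 for lymphocytes, and -0.17 and 0.00 for dividing cells. The part of these cells in the member results was not tested.

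Hepcidin also answers to inflammation, so 10 acute-phase genes were read beside it. Their sum, led by Fga at 2124 TPM, was lower in every SAAR mouse than in every Ctrl mouse of the same fat content, with means of 9971 CPM in RF.Ctrl, 8033 in RF.SAAR, 9493 in HF.Ctrl and 8312 in HF.SAAR. These sums are scaled by TMM factors, and without Fga HF.SAAR 2 (4815 CPM) was above HF.Ctrl 3 (4791 CPM). Averaged over fat Fga was -0.27 (adjusted p = 0.0102), a call lost by library size alone (-0.10, adjusted p = 0.203) and in the mice with low acinar sums (-0.24, adjusted p = 0.33). As TPM, its mean went from 2295 without restriction to 2236 with it on RF, and was higher with it on HF, at 2071 beside 1894. On each fat content 3 of 10 were called, 1 higher and 2 lower on RF and 2 higher and 1 lower on HF, and averaged over fat 7 of 10, 2 higher and 5 lower, beside 1.49%, 1.97% and 6.92% of all tested genes. The genes with an unadjusted p under 0.05 numbered 6, 9 and 8 of 10, beside 13.6%, 12.4% and 20.3% of all tested genes. The medians of the acute-phase genes were -0.43, -0.23 and -0.26. Their part in the Hamp values was not tested.

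Of 38 tested genes with an iron-responsive element window by the stricter rule, and leaving out Tfrc, 1 was called higher (Ftl1) and 2 lower (Alas2 and Serpina3c, named after its values were seen) on RF. Over all 38, with Tfrc included, the median log2 fold change was 0.02 on RF and 0.06 on HF, beside -0.00 for all genes. The RF median thus holds the value that chose Tfrc. Without the members, Tfrc among them, it was 0.01 on RF and 0.02 on HF over 34 genes.

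By likeness over the 12 mice, 307 of 14669 genes had a Pearson r of at least 0.8 with Tfrc and 394 had an r of -0.8 or lower, taken on log2 CPM. These values are descriptions, and the mice share 2 diets and 2 fat contents, so any gene that separates the diets scores high. The 10 genes with the highest r were Ddx4 (0.971), Cyp4a31 (0.970), Desi2, Yy1, Cyp39a1, Rragc, Htatip2, Dusp3, Dvl1 and App (0.951). The 5 lowest were Ldhd (-0.982), Hsd3b2 (-0.980), Acad8, F13b and Prnp (-0.959). Among members, r was 0.88 for Slc11a2, 0.87 for Ftl1, 0.83 for Fth1, 0.76 for Slc40a1 and -0.92 for Tfr2, and between -0.44 and 0.46 for Trf, Hamp, Hamp2 and Bmp6. With group means removed, r was largest in size for Trf (-0.44), followed by 0.42 for Ftl1, 0.38 for Fth1, -0.20 for Bmp6, 0.19 for both Slc11a2 and Hamp2, -0.16 for Slc40a1, 0.07 for Hamp and -0.06 for Tfr2.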

How the data were processed

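Liver RNA was sequenced from 12 mice. The authors trimmed reads with cutadapt 3.4, checked them with FastQC 0.11.9 and assigned them with kallisto 0.46.2 to the mouse transcriptome of Ensembl release 94 (GRCm38). The authors made the deposited estimated counts, in read pairs, by kallisto quantification of trimmed reads, together with TPM and effective lengths in bases for each transcript. Estimated counts were summed by gene through the GENCODE annotation and rounded. The 1673 unmatched transcripts, with 1.08% of counts, were left out. All 12 mice entered 1 fit in edgeR 4.0.16 under R 4.3.3, with a coefficient per group, TMM factors, filterByExpr and the robust quasi-likelihood F-test, with p adjusted by the Benjamini-Hochberg method in edgeR and DESeq2. SE is the size of the log2 fold change over the square root of F. Depth was 16203094 to 21230092 counts per mouse. Settings tried were RLE factors, library size alone, other filters, the compared groups alone, DESeq2 1.42.0, effective-length offsets, the most abundant transcript, no acinar genes and each mouse left out. Named were all members, called, most abundant and smallest-p genes of each pathway list, the most abundant marker of each list and the genes most and least like Tfrc. Members and lists were chosen with earlier results of these data known.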

Additional observations from a re-analysis of the deposited data

How the results depend on the processing

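On HF the Tfrc value was between 1.60 and 1.90 over 10 settings. It was called in each setting that kept more than 1 mouse in each HF group. Over settings and mice left out, 1371 readings of members kept their direction and side of the threshold, 40 lost a call, 10 gained one, 89 changed direction or size without a call, and 0 reversed a call. These readings pool all comparisons, and every lost or gained call lay on RF, on HF or averaged over fat. In the comparisons of fat content and in the interaction there was no member call to lose, so 1371 does not measure how steady the calls were. Counts of members called on RF or averaged over fat include Tfrc here, whose RF value is a description. By library size alone, 4 members and 9 pathway genes were called on RF (2 and 3 with TMM) and 27 pathway genes averaged over fat (13 with TMM). All genes then called numbered 425 on RF, 719 on HF and 2449 averaged over fat (218, 289 and 1015 with TMM), with 84.5%, 88.9% and 88.8% of calls higher (40.4%, 51.2% and 46.5% with TMM), and the median of all genes moved to 0.164, 0.166 and 0.163, a shift relative to which those values stand. The effective-length offset made 67.1% of calls higher on HF and 58.6% averaged over fat. With DESeq2, 4 members and 6 pathway genes were called on RF and 1 pathway gene in HF vs. RF averaged over diet, and all genes called were 591 on RF, 595 on HF, 85 (7 with edgeR) between the SAAR groups, 31 (0) between the Ctrl groups, 16 (1) in the interaction and 124 (6) in HF vs. RF averaged over diet. With no filter beyond a count above 0, 14, 3 and 18 genes were called between the SAAR groups, between the Ctrl groups and in HF vs. RF averaged over diet. In the most abundant transcript, the Tfrc RF value was 1.97, members called were 1 on RF and 2 on HF, pathway genes 0 on RF by edgeR, 2 on HF and 7 averaged over fat, and all genes 40, 95 and 382. The compared groups alone called 1 member on RF and 190 genes on HF. In the 7 mice with low acinar sums, chosen after seeing the data, members called were 1 on RF, 1 on HF and 2 averaged over fat with Tfrc included, pathway genes 1, 0 and 3, and all genes 81, 6 and 234, with fewer mice in each fit. In leave-one-out fits, members called were 1 to 2 on RF and 2 to 4 on HF, pathway genes 1 to 3 on RF and 3 to 6 on HF, and all genes as few as 87 on RF (without RF.Ctrl replicate 3), 110 on HF and 655 averaged over fat (both without HF.Ctrl replicate 1). Those fits called 1 to 7 genes between the SAAR groups (1 without HF.SAAR replicate 2 or 3), 0 to 2 between the Ctrl groups, 0 to 2 in the interaction and 0 to 11 in HF vs. RF averaged over diet. The cause of these changes was not tested. With 3 mice a group and Hamp2 at 46 to 234 counts, differences inside the printed intervals were not resolved.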
